A study of Homo sapiens with 4 samples.

Results

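MicroRNA genes that held reads in poly(A) RNA-seq libraries are described here. The deposited tables have 44591 rows, of which 1857 are of gene type miRNA, and the 74 microRNA genes whose counts summed to 20 or more over the 4 libraries were taken. Another 522 microRNA rows had between 1 and 19 counts, and 1261 had 0. The genes were selected on this summed count, so the level of these genes is a description and not a finding.

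The libraries were labelled as HepG2, a human hepatoma line long in culture, transfected with siNC, a control siRNA, or siLINC01186, an siRNA against the long noncoding RNA LINC01186, which the study calls SALIS. There were 2 libraries per group, numbered replicate 1 and replicate 2, and siNC 1 below stands for siNC replicate 1. After transfection the cells of both groups were kept for 6 h without serum and then for 24 h with it. The study gives the same siNC and different oligos against LINC01186 for the replicates, and the labels do not say which oligo a library received. The study calls the replicates biological repeats, the labels do not say how they were made, and p-values measure the spread between these libraries.

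A microRNA is first transcribed as part of a long primary transcript, often within an intron or an exon of another gene. The nuclear enzyme Drosha, with its partner DGCR8, cuts a short hairpin out of this transcript, and Dicer later trims the hairpin in the cytoplasm to the mature microRNA. The mature form guides Argonaute proteins to messenger RNAs, mainly by pairing through its seed, bases 2 to 8. Mature microRNAs carry no poly(A) tail and are shorter than the fragments of an ordinary mRNA library. The reads of such a library at a microRNA gene therefore measure longer RNA that covers the hairpin, and not the mature microRNA.

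RefSeq entries on GRCh38.p14 matched 67 of the 74 genes by symbol, and 65 of them had a mature sequence. MIR6087, MIR4461, MIR4664, MIR1254-1, MIR3653, MIR1204 and MIR661 did not match. The first set below holds the mature sequences of the most abundant matched genes and of those whose values the comparisons turn on, to show which product each row is named for. Capitals mark the seed.
miR-614: gAACGCCUguucuugccaggugg
miR-5047: uUGCAGCUgcgguuguaaggu
miR-4442: gCCGGACAagagggagg
miR-4523: gACCGAGAgggccucggcugu
miR-4292: cCCCUGGGccggccuugg
miR-662: uCCCACGUuguggcccagcag
miR-5587-5p: aUGGUCACcuccgggacu
miR-5587-3p: gCCCCGGGcagugugaucauc
miR-3176: aCUGGCCUgggacuaccgg
miR-1914-5p: cCCUGUGCccggcccacuucug
miR-1914-3p: gGAGGGGUcccgcacugggagg
miR-647: gUGGCUGCacucacuuccuuc

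The second set shows the seeds that more than 1 of the genes share. The 97 mature sequences had 95 distinct seeds, and 2 seeds were shared, each by a pair of genes. The first pair is MIR663A with MIR1908 and the second MIR25 with MIR92B.
miR-663a: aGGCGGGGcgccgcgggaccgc
miR-1908-5p: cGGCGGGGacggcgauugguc
miR-25-3p: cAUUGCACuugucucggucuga
miR-92b-3p: uAUUGCACucgucccggccucc

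The libraries held 14968958 to 17297245 counts. With 3 counts as a floor, the lowest level a library could show was 0.169 to 0.210 CPM, the count scaled to 1000000 in the library, which covers counting error only. The targeted gene, LINC01186, was counted 15 and 14 times in the siNC libraries against 12 and 14 times in those labelled siLINC01186. Its log2 fold change of -0.12 (standard error 0.53) rests on these few counts. The study reports knockdown of this RNA by qPCR after the siRNAs in HepG2. Every direction below is therefore between libraries as labelled. Defining markers of hepatocyte-type cells were nearly absent. Albumin (ALB) had 0 counts in both libraries of replicate 1 and 15 and 14 in those of replicate 2, APOA1 had 0, 21, 0 and 20 counts in siNC 1, siNC 2, siLINC01186 1 and siLINC01186 2, and AFP had between 2 and 16 counts. The 7 hepatocyte-type markers tested summed to 4.90 and 6.23 CPM in replicate 1 and 15.5 and 14.6 CPM in replicate 2. Most of this came from HNF4A. Of the 7, 4 were higher in replicate 2 past the limits used below, against 3.94% of all genes. TTR had 3 counts in all, too few for the test. The data go against the label HepG2 in this respect, and the libraries are called by their labels. Of the 8 markers of other cells 6 were tested. Their summed level was 93.7 and 94.6 CPM in replicate 1 and 124 and 123 CPM in replicate 2. CD68 had 786 to 912 counts per library, COL1A1 333 to 790, PDGFRB 116 to 433 and COL1A2 105 to 135. VWF had 8 to 18 and PECAM1 0 to 7, while PTPRC had 2 counts in all and CD3E 0. Of the 6 tested, 2, PDGFRB and PECAM1, were higher in replicate 2 past the limits.

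The 74 microRNA genes took 0.0378% and 0.0534% of all counts in siNC 1 and siNC 2, and 0.370% and 0.227% in siLINC01186 1 and siLINC01186 2. A single gene, MIR6087, held 67.0% and 81.5% of these counts in the siNC libraries and 96.2% in each siLINC01186 library. The mean share was 0.0456% ± 0.0110 (SD, n = 2) for siNC and 0.298% ± 0.101 (SD, n = 2) for siLINC01186, a ratio of 6.55. Both siLINC01186 libraries lay above both siNC libraries, and the exact two-sided permutation test gave p = 0.333, the smallest that 2 libraries against 2 allow.

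With MIR6087 left out of the table, the other 73 genes took 0.0125% and 0.00986% of counts in siNC 1 and siNC 2, and 0.0141% and 0.00873% in siLINC01186 1 and siLINC01186 2. The groups then overlapped, with means of 0.0112% ± 0.00183 (SD, n = 2) and 0.0114% ± 0.00381 (SD, n = 2) and an exact permutation p of 1. Instead, both libraries of replicate 1 lay above both libraries of replicate 2. The 1783 microRNA rows under the limit took 0.00357% to 0.00379% in every library, so they differed little between groups or replicate numbers.

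In TPM, which divides each count by the length of the row before scaling to 1000000, the same genes weighed far more, since their median length is 82 nt against 1380 nt over all rows. They took 1.49% and 2.17% of all TPM in siNC 1 and siNC 2, and 14.2% and 8.89% in siLINC01186 1 and siLINC01186 2. Of this, MIR6087 alone was 1.16%, 1.91%, 13.8% and 8.69% in the same order. Among all rows it ranked 5 (siNC 1) and 3 (siNC 2) by TPM, and 1 in both siLINC01186 libraries, whereas by count it ranked 678, 287, 10 and 19. Without MIR6087 the siNC libraries gave the other 73 genes 0.339% and 0.263% of the remaining TPM, the siLINC01186 libraries gave 0.369% and 0.223%, and the groups overlapped. Because TPM sums to a fixed total, leaving out this 1 row raised every other TPM value by a factor of 1.01 and 1.02 in the siNC libraries and of 1.16 and 1.10 in the siLINC01186 libraries. The median L2FC (log2 fold change) of expressed genes was -0.17 on the log2(TPM + 0.1) scale with MIR6087 in the table and -0.02 without it.

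**Figure D1:**
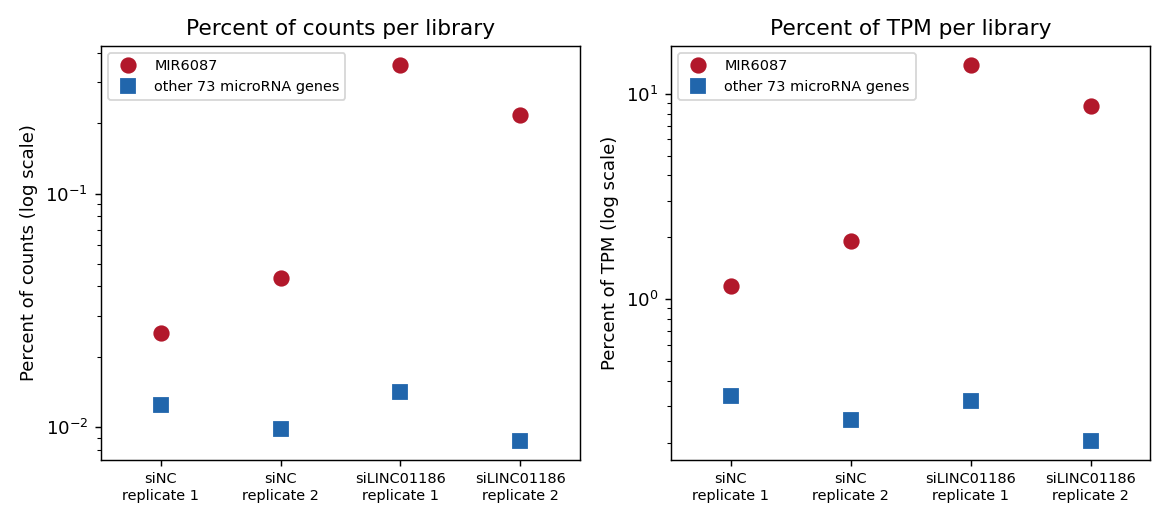
Percent of all counts (left) and of all TPM (right) per library, both on a log scale, for MIR6087 (circles) and the other 73 microRNA genes (squares). MIR6087 lay higher in both siLINC01186 libraries, at 13.8% and 8.69% of TPM, while the other genes lay higher in replicate 1 of each group.

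MIR6087 is annotated on chromosome X (chrX:108297772-108297820 on hg19, plus strand, 49 nt). It lies within no other row, and the nearest, LOC101928358, is 315639 bp away. It had 4380 and 6879 counts in siNC 1 and siNC 2, and 53292 and 36583 in siLINC01186 1 and siLINC01186 2. The libraries labelled siLINC01186 were higher than both siNC libraries in either replicate. Its level was 344 ± 116 CPM (SD, n = 2) in siNC and 2894 ± 1182 CPM (SD, n = 2) in siLINC01186. The L2FC was 3.07 (standard error 0.34). Its p in edgeR's test was 9.63e-06 before and 0.231 after Benjamini-Hochberg adjustment over all genes. Within replicate 1 the difference was 3.83 on the log2 CPM scale and within replicate 2 it was 2.27. Whether the pairs differ could not be tested with 1 library per group in each. The gene's own reads and reads of other RNA with the same sequence cannot be told apart in these counts.

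Several RNAs that end without a poly(A) tail were also counted, and they were chosen after their values were seen. RN7SK, the 7SK RNA that restrains the elongation factor P-TEFb, had 1326 and 1082 counts in siNC 1 and siNC 2, and 2003 and 1449 in the siLINC01186 libraries. RMRP, the RNA of the RNase MRP, had 311 and 254 counts against 548 and 371, and TERC, the telomerase RNA, had 47 and 28 against 86 and 60. Both siLINC01186 libraries were above both siNC libraries in these 3 genes, as in 13.6% of all genes. The L2FCs of the 3 were 0.60, 0.78 and 1.04. The 58 snRNA rows other than RN7SK had 149 and 162 counts in siNC against 108 and 255, and the groups overlapped. The most abundant RNAs of this kind had L2FCs near 0. RN7SL1 and RN7SL2, of the signal recognition particle, had L2FCs of 0.18 and 0.06, and RPPH1, the RNA of RNase P, had 0.07. RN7SL1 had 37926 and 66954 counts in siNC against 40733 and 78193, so it was split by the replicate number. Of these 6 RNAs 1, TERC, was higher past the limits given below and 0 were lower, against 0.464% and 0.292% of all genes. The part of such RNAs in the MIR6087 result was not tested.

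The comparison of siLINC01186 with siNC asked which microRNA genes differed with the siRNA. Genes were called past a log2 fold change of 1 in either direction with an unadjusted p under 0.05. All 74 genes were tested, and 1 of them, MIR6087, was higher past these limits against 0.464% of the 23942 genes tested. None was lower (0 of 74), against 0.292% of all genes. After adjustment 0 of the 74 genes and 0% of all genes passed in edgeR's test, and at an unadjusted p under 0.05 it was 1 of the 74, against 1.21% of all genes. DESeq2's Wald test also called MIR6087 alone, with an adjusted p of 2.38e-18. The median L2FC of the 74 genes was -0.07, beside 0.00453 over all genes tested, with 36 genes above 0 and 38 below. Both siLINC01186 libraries were above both siNC libraries in 6 of the 74 genes, against 13.6% of all genes, and below in 12, against 12.4%.

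None of the 9 next most abundant genes passed the limits between the groups. MIR663A (chr20:26188822-26188914, minus strand) had 419 and 218 counts in siNC 1 and siNC 2 and 662 and 228 in the siLINC01186 libraries. Replicate 1 was higher than replicate 2 in each group, and the L2FC between groups was 0.61 with a standard error of 0.51. MIR614 (chr12:13068763-13068852) had 214, 197, 222 and 172 counts in siNC 1, siNC 2, siLINC01186 1 and siLINC01186 2, with an L2FC of 0.01. Its 4 libraries stayed within a narrow range.

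MIR5047, inside DDX5, a gene for an RNA helicase that associates with Drosha, had 156, 123, 112 and 130 counts in the same order of libraries and an L2FC of -0.16. MIR4442 had 89, 107, 66 and 94 counts and an L2FC of -0.27, and MIR4461 had 71, 72, 47 and 73 with an L2FC of -0.23. Both overlapped between the groups in counts, whereas in CPM they averaged 5.97 ± 0.930 and 4.35 ± 0.156 (SD, n = 2) in siNC against 4.95 ± 0.474 and 3.70 ± 0.579 (SD, n = 2), with each siLINC01186 library below both siNC libraries. MIR4664, inside FAM83H, had 52 to 67 counts in every library. MIR4523 had 37 and 63 counts in siNC against 50 and 23, and the siLINC01186 library was higher in replicate 1 and lower in replicate 2. MIR4292 and MIR5587 had 22 to 71 and 16 to 65 counts, and both were split by the replicate number and not by the group.

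**Figure D2:**
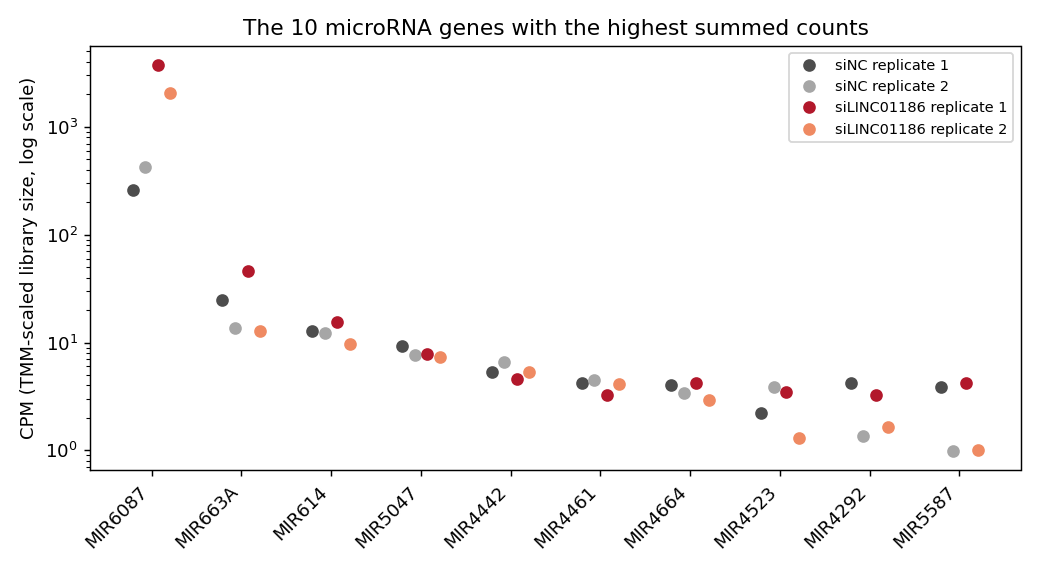
Level of the 10 microRNA genes with the highest summed counts, in CPM on a log scale, with 1 point per library. MIR6087 separated the groups, while MIR4292 and MIR5587 were lower in both libraries of replicate 2.

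Within each replicate number, the siLINC01186 library was above its siNC library in both pairs for 13 of the 74 genes and below in both for 23, and the sign differed between the pairs for 38. Across the 73 genes other than MIR6087, the differences of the pairs had a Pearson r of -0.11 and a Spearman rho of -0.07. These points come from the same 4 libraries and many rest on few counts, so the correlation is a description. Only MIR6087 and MIR662 differed by more than 1 on the log2 CPM scale in one direction in both pairs. MIR662 (chr16:820183-820277) had 42 and 23 counts in siNC 1 and siNC 2 and 16 and 3 in the siLINC01186 libraries, and the groups did not overlap. Its differences were -1.08 and -2.41 within replicates 1 and 2. The L2FC of -1.65 had a standard error of 0.74 and did not pass (unadjusted p = 0.0535, edgeR's quasi-likelihood test). MIR662 lies within no row of the tables. It is 1318 bp from MSLN, and GENCODE release 29 places it opposite an exon of MSLNL. MIR4740, opposite in strand to BAHCC1, had 18, 19 and 15 counts in siNC 1, siNC 2 and siLINC01186 1 and 0 in siLINC01186 2, where a count of 0 allows up to 0.169 CPM.

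**Figure D3:**
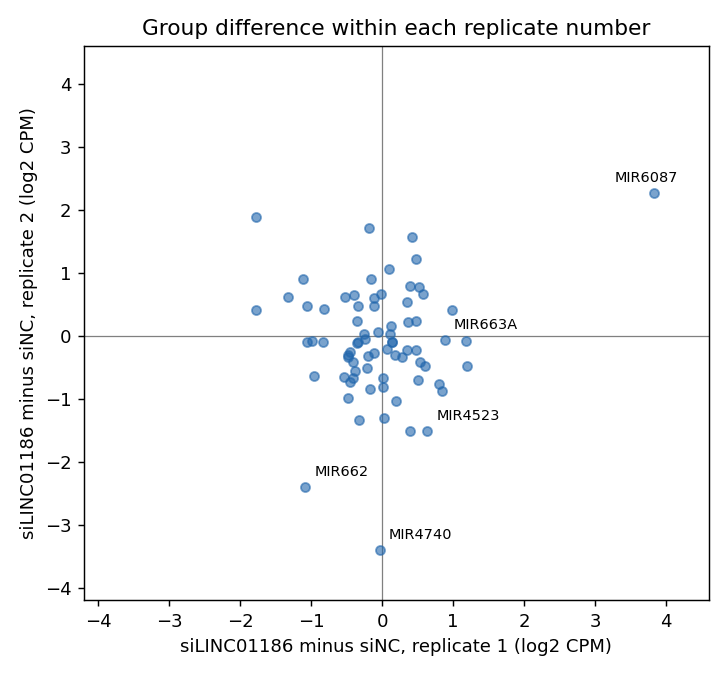
Difference of the siLINC01186 library from the siNC library in replicate 1 (horizontal) and replicate 2 (vertical), in log2 CPM, with 1 point for each of the 74 genes. MIR6087 lay at 3.83 and 2.27, MIR662 at -1.08 and -2.41, and the others were spread around 0.

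By the positions in the tables, 51 of the 74 genes lay within another row on the same strand, 10 only within a row on the opposite strand, and 13 within none. The 61 genes with a host lay in 56 different hosts, and 52 of the 61 were within protein-coding genes. DDX5, UCKL1, CAPN15, BAHCC1 and AATK each held a pair of the genes, which then share a host row. The pair in BAHCC1 is opposite to it in strand and so is not part of its transcript. Of the 13 without a host row, 12 were within 10000 bp of another row and 9 lay inside a gene in GENCODE release 29, MIR614 in GPRC5A and MIR4442 in TOP2B among them. By that release, 23 genes overlapped an exon of a spliced transcript on the same strand, 5 only a retained intron, 33 an intron, 9 only the opposite strand of a gene, and 4 no other gene.

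The share of all microRNA rows that reached 20 counts differed between these locations. It was 8.55% of 269 rows in exons, 10.6% of 47 in retained introns, 3.51% of 941 in introns, and 1.09% of 368 outside other genes. For rows that overlap a gene on the opposite strand only, it was 12.5% of 48 at exons and 1.64% of 183 in introns. Most microRNA rows inside exons or introns of other genes therefore stayed below the limit too. Whether strand was used in the authors' counting is not given in the sources used here, so reads of a microRNA gene and of its host or antisense partner cannot be told apart. MIR4477A and MIR4477B, annotated on opposite strands of the same interval, had the same counts in every library (3, 7, 3 and 7), and they count as 1 measurement. All 5 pairs of rows that share an interval and hold a count had identical counts. Of the 7 overlapping pairs with 10 or more counts, 4 had 1 row at 0, such as MIR3074 with 43 counts and MIR24-1 with 0, or MIR3190 with 30 and MIR3191 with 0.

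Most genes lay below their host in TPM, which divides by row length. The microRNA rows are shorter than the library fragments given in the study's methods, and TPM makes no allowance for this. The percents below are therefore a description, and TPM does not put these rows and their longer hosts on one scale. Among the 32 intronic genes with a same-strand host row, the mean TPM was 49.9% of the host's at the median and ranged from 1.18% to 2441%, with 5 above the host. For the 15 genes in exons the median was 33.2%, with 4 above the host, and for the 4 in retained introns it was 16.4%. MIR663A stood at 524 TPM against 0.817 for MIR663AHG, its annotated host transcript. MIR4523 stood at 81.2 TPM against 0.843 for its host row, a lincRNA with 11 counts in all. MIR4461 stood at 113 TPM against 4.63 for PCBD2. GENCODE release 29 also places MIR4523 within TAOK1 on the same strand, and MTND4LP30 opposite in strand to MIR4461. These 3 genes were thus far above these host rows in TPM, and TAOK1 and MTND4LP30 were not compared. MIR5047 was at 97.8% of DDX5 and MIR25, in the replication helicase gene MCM7, at 16.4% of its host.

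**Figure D4:**
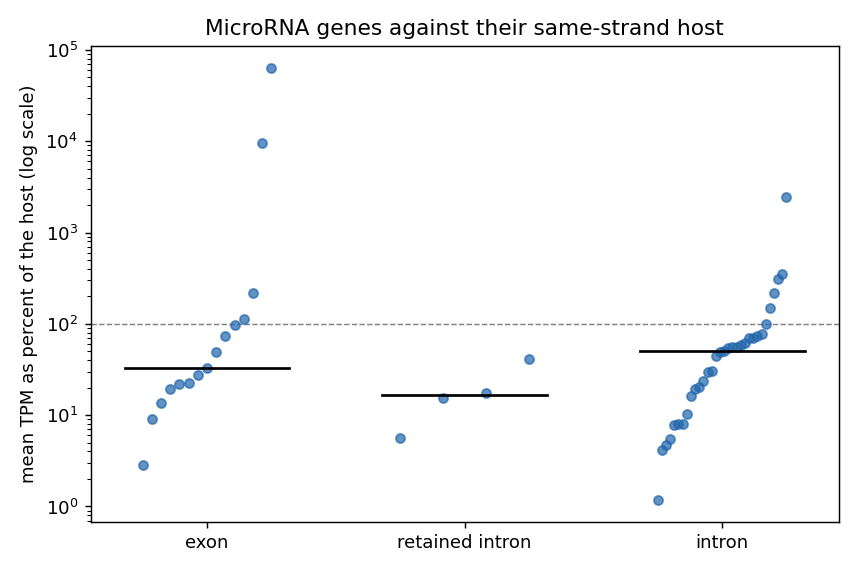
Mean TPM of a microRNA gene over the 4 libraries as a percent of its same-strand host row, on a log scale, for genes in an exon, a retained intron or an intron. Each point is a gene and the bar is the median, 33.2%, 16.4% and 49.9%, and the dashed line marks a level equal to the host.

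No host passed the limits between siLINC01186 and siNC (0 of 56 higher and 0 of 56 lower, against 0.464% and 0.292% of all genes), and the median L2FC of the hosts was -0.03. Across the 51 genes with a same-strand host, the L2FC of gene and host had a Pearson r of 0.11 between groups, given as a description over genes that share libraries.

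The 74 genes were next compared between the replicate numbers. This comparison, of both replicate 2 libraries with both replicate 1 libraries, was added after the data were seen. Of the 74 genes 13 were lower in replicate 2 past the limits, 17.6%, against 1.52% of all 23942 genes tested. In the other direction 1 gene, MIR224, was higher, against 3.94% of all genes. By edgeR's adjusted p under 0.05, 8 of the 74 genes were lower, against 4.57% of all genes, and 0 were higher, against 4.44%. The median L2FC of the 74 genes was -0.43, beside 0.02 over all genes tested. Both replicate 2 libraries were below both replicate 1 libraries in 27 of the 74 genes, against 25.6% of all genes, and above in 11, against 27%. In log2 CPM all 13 genes were lower in replicate 2 within siNC and within siLINC01186, though they were picked on the fall over both groups. For MIR647 the siLINC01186 libraries had equal counts, so its fall there rests on the library scaling. Beside this, 4 of 7 hepatocyte-type markers and 2 of 6 markers of other cells were higher in replicate 2 past the limits. By the study's account, the oligo also differed between the siLINC01186 libraries. The part of the markers and the oligo in the result was not tested.

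A pair of genes in CAPN15, which encodes a calpain-family protein, showed the pattern together. MIR5587 (chr16:585316-585368) had 65 and 60 counts in siNC 1 and siLINC01186 1, and 16 and 18 in siNC 2 and siLINC01186 2. Its level was 4.04 ± 0.225 CPM (SD, n = 2) in replicate 1 and 1.00 ± 0.0154 CPM (SD, n = 2) in replicate 2, with an L2FC of -2.00, a standard error of 0.31 and an adjusted p of 0.00139 (edgeR). MIR3176 (chr16:593277-593366), further along the same host, had 52 and 64 counts in replicate 1 and 22 and 14 in replicate 2, with an L2FC of -1.82 (standard error 0.35). Neither gene overlapped between the replicate numbers.

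UCKL1, a uridine-cytidine kinase-like gene, held the second pair. MIR1914 had 69 and 60 counts in siNC 1 and siLINC01186 1 and 21 and 8 in siNC 2 and siLINC01186 2, with an L2FC of -2.26 (standard error 0.38, adjusted p = 0.00226, edgeR). MIR647 had 43 and 20 counts in replicate 1 and 13 and 20 in replicate 2, and its L2FC of -1.04 passed the limits but not the adjustment (adjusted p = 0.132, edgeR). In MIR647 the siLINC01186 libraries had equal counts.

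MIR663A fell by 1.43 on the log2 scale (standard error 0.22, adjusted p = 0.00142, edgeR), from 35.7 ± 15.1 CPM (SD, n = 2) in replicate 1 to 13.2 ± 0.477 CPM (SD, n = 2) in replicate 2. MIR4292, in the Rab-like GTPase gene RABL6, had 71 and 47 counts in replicate 1 and 22 and 29 in replicate 2. MIR3186, opposite in strand to the chromatin protein gene BAHCC1, had 47 and 27 against 14 and 9. MIR324, opposite to ACADVL, which encodes an acyl-CoA dehydrogenase of mitochondria, had 16 and 25 against 6 and 3. MIR6753, in the proton pump gene TCIRG1, had 23 and 21 against 2 and 7. In each of these genes the ranges of the replicate numbers did not overlap, and the adjusted p lay between 0.00142 and 0.0257 (edgeR). The other 4, MIR631, MIR3064, MIR4258 and MIR3934, passed the limits with adjusted p from 0.118 to 0.203.

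The host rows had smaller log2 fold changes than the 13 microRNA genes within their intervals. MIR324, MIR631, MIR3186 and MIR3934 lie opposite in strand to their host row, so its transcript does not contain them. The 13 genes lay in 11 hosts, whose median L2FC was -0.49, against -1.78 for the 13 genes. Each of the 13 genes had a lower L2FC than its host, 10 of the 11 hosts were below 0, and 6 had an adjusted p under 0.05. The 13 genes were picked for their fall and the hosts were not, so the choice alone favours a larger fall than the host's. CAPN15 had 4822 and 4019 counts in replicate 1 and 2560 and 3057 in replicate 2, an L2FC of -0.78 beside -2.00 and -1.82 for its microRNA genes. UCKL1 had 1332 and 1048 against 878 and 796, an L2FC of -0.63 beside -2.26 and -1.04. CKS1B, a cell-cycle kinase subunit gene, had an L2FC of 0.06 while MIR4258 in its intron had -1.22. The difference between a gene and its host was not tested. Of all 56 hosts, 0 passed the limits in either direction, against 1.52% of all genes lower and 3.94% higher.

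**Figure D5:**
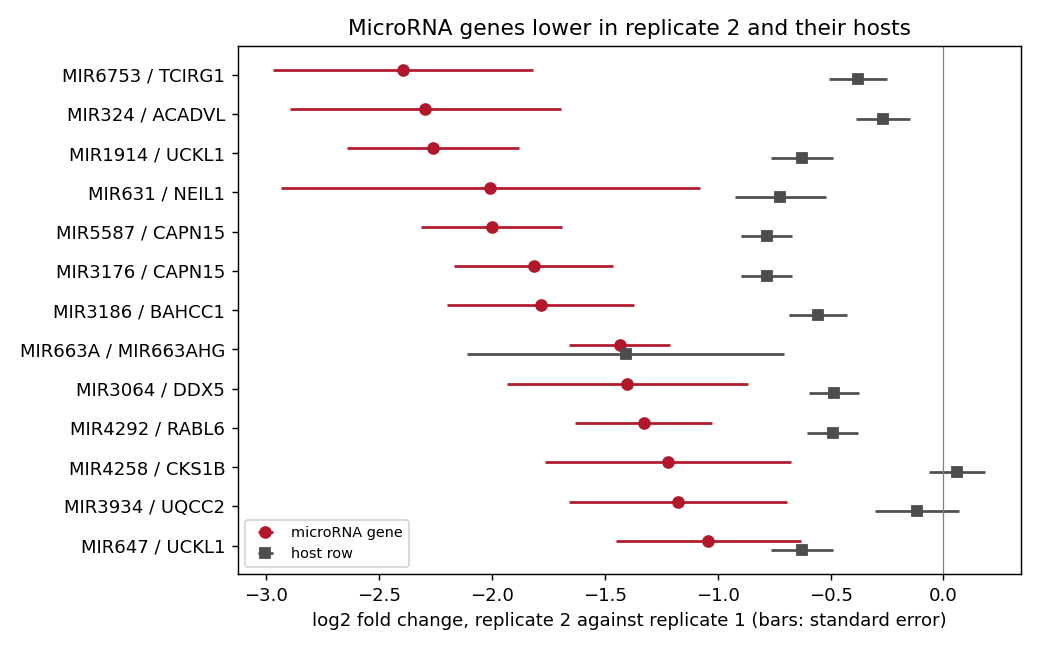
Log2 fold change of replicate 2 against replicate 1 for the 13 microRNA genes lower in replicate 2 (circles) and the row that contains each (squares), with standard errors as bars. Each gene lay to the left of its host, and MIR663A and its sparse host MIR663AHG, with 4 to 14 counts per library, were close together. The genes were picked for this fall and the hosts were not. MIR324, MIR631, MIR3186 and MIR3934 are opposite in strand to their host row.

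MicroRNAs well known in liver or in cancer were then read at their own rows. Of 29 rows of such families, 21 had 0 counts (72.4%, beside 67.9% of all microRNA rows), and 1, MIRLET7D with 23, was among the 74 genes (3.45%, beside 3.98%). MIR122, the main microRNA of hepatocytes, MIR21, MIR22, MIR192, MIR148A, the 3 MIR34 rows and the 6 rows of the MIR17HG cluster had 0 counts in all libraries. MIR210, which responds to low oxygen, had 15 counts in all. MIR3648, MIR3687 and MIR6724 were not analysed here.

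Their primary transcripts, where the tables list them, did hold reads. MIR22HG had 174 and 97 counts in siNC 1 and siNC 2 and 101 and 99 in the siLINC01186 libraries, MIR17HG had 131, 87, 83 and 70 in the same order, and MIR34AHG 239, 281, 176 and 300. Of 50 such host-transcript rows 14 had 0 counts and 28 were tested, and none passed the limits between the groups (0 higher and 0 lower, against 0.464% and 0.292% of all genes). Between the replicate numbers 3 were higher in replicate 2 and 0 lower, against 3.94% and 1.52% of all genes. They were MIR99AHG with an L2FC of 1.15, MIR924HG with 1.04, and MIR217HG, which had 7 counts in all.

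The genes that make and use microRNAs all held reads. None of them (0 of 14) passed the limits between the groups, where 0.464% of all genes were higher and 0.292% lower, or between the replicate numbers, where 3.94% were higher and 1.52% lower. DICER1, the enzyme that trims the hairpin, had 1284 and 1190 counts in siNC 1 and siNC 2 and 1033 and 586 in the siLINC01186 libraries. Its level was 76.7 and 73.7 CPM in siNC 1 and siNC 2, and 72.3 and 33.0 CPM in siLINC01186 1 and siLINC01186 2. Both siLINC01186 libraries were below both siNC libraries, with an L2FC of -0.52 and a standard error of 0.32. The difference was -0.08 on the log2 CPM scale within replicate 1 and -1.16 within replicate 2, so the fall lay mostly in siLINC01186 2. DROSHA had 2990, 2516, 2281 and 2651 counts in siNC 1, siNC 2, siLINC01186 1 and siLINC01186 2, and the groups overlapped.

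The count limit of the choice falls in a dense range. The rows with 20 counts were MIR4477A, MIR4477B, MIR4656, MIR570, MIR6739 and MIR92B, and those with 19 were MIR3178, MIR3680-1 and MIR3685. Of the 74 genes 42 had under 50 counts in all and 15 had 100 or more.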

How the data were processed

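Poly(A) RNA of 4 libraries, 2 labelled siNC and 2 labelled siLINC01186, was sequenced as paired ends on an Illumina instrument. Per gene, the authors deposited raw read counts and TPM values, which equal the counts divided by row length and scaled to 1000000 (largest difference 2.91e-05). The submitters' processing notes name HISAT2, HISAT, TopHat2, Bowtie2 and hg19 without versions or roles, and the counting program is not given in the sources used here. Depth was 14968958 to 17297245 counts.

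Genes with at least 5 summed counts (23942) were TMM-normalized and tested with edgeR 4.0.16 in R 4.3.3 by its quasi-likelihood test, with Benjamini-Hochberg adjustment over all of them. Library sizes scaled by TMM gave CPM, and log2 CPM has a prior count of 2. Shares were compared by exact permutation in Python 3.11.15. DESeq2 1.42.0, limma 3.58.1 on log2(TPM + 0.1), other filters, the replicate block, other member limits and leaving out each library were alternatives, and the fit was tested on simulated data.

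Hosts are the rows whose interval contains the microRNA gene, and exon or intron was read by symbol from GENCODE release 29. The genes named are the 10 with the highest counts, those with an unadjusted p under 0.05, fixed families, MIR host transcripts and biogenesis genes; genes named in the comparison of replicate numbers, MIR662, MIR4740 and the RNAs without a poly(A) tail were chosen after their values were seen. The microRNA genes and lists were chosen with earlier results of these data known.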

Additional observations from a re-analysis of the deposited data

How the results depend on the processing

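The count of genes higher between siLINC01186 and siNC was 0 without MIR6087 in the table or in the rescaled TPM, which removes it by construction, and 1 to 4 with a library left out (4 without siNC replicate 1, 2 without either siLINC01186 library). The count of genes lower, 0 in the fit reported, was 1 with at least 1 count in any library, 2 with the replicate block, 4 on log2 TPM, 2 with a summed-count limit of 10, and 0 to 3 with a library left out (3 without siLINC01186 replicate 1, 1 without siNC replicate 2). The log2 ratio of the groups without MIR6087 was 0.035 for the share of counts and -0.025 for the share of TPM, against 2.71 and 2.65 with it. Same-numbered libraries deviated together over 16850 genes (correlation 0.563), but with a pair of numbers they share only a number. With the replicate block, MIR6087 had an L2FC of 3.05, 2 genes were lower (MIR662, -1.75, and MIR4740, -1.38) against 0.418% of all genes, and 2 of the 74, MIR6087 and MIR662 (adjusted p = 0.0217, edgeR), passed the adjustment, against 1.16% of all genes. DICER1 then had an L2FC of -0.61 (adjusted p = 0.000548, edgeR). Its differences were -0.08 and -1.16 on the log2 CPM scale within replicates 1 and 2, so its fall lay mostly in siLINC01186 2. MIR6087 stayed past the limits in all 10 alternatives that include it, at 2.58 to 3.47, with adjusted p from 2.93e-249 (edgeR, block) to 1.00 (edgeR's expression filter). The fall of the genes in replicate 2 held for 8 of the 13 with DESeq2's Wald test, against 0.731% of all genes. With the group in the model 14 genes were lower, the 13 among them, against 1.35% of all genes.

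Of 108 alternative values of the 9 other abundant genes, 91 kept direction and call, 15 changed sign and 2 passed the limits, those of MIR663A without siNC replicate 1 (1.13) and without siLINC01186 replicate 2 (1.26). The changed signs outside single left-out libraries were MIR614 at -0.018 with the replicate block, -0.20 on log2 TPM and -0.046 on rescaled TPM, and MIR5587 at -0.10 on log2 TPM. With a library left out, L2FCs ranged from -0.59 to 1.26 for MIR663A, -0.37 to 0.31 for MIR614, -0.34 to 0.17 for MIR4664, -1.23 to 0.19 for MIR4523, -0.79 to 0.84 for MIR4292 and -1.26 to 1.37 for MIR5587. Most genes hold few counts, so differences under several counts were not detectable at this depth.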

Other observations

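Other RNA classes also held rows lower in replicate 2. Of 208 snoRNA rows tested, RNAs that guide modification of ribosomal RNA and mostly lie in introns, 21 (10.1%) were lower in replicate 2 past the limits and 0 were higher, with a median L2FC of -0.55. Among rows annotated as sense intronic transcripts 21 of 347 (6.05%) were lower, and among protein-coding genes 135 of 15257 (0.885%). Over all microRNA rows tested it was 19 of 257 (7.39%), which include the 74 genes.

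The mature sequences of the 13 genes lower in replicate 2 had a median GC content of 66.7% (50.1% to 90.9%), against 54.9% (27.3% to 85.7%) for the 52 others with a sequence. Over these 65 genes, GC content and the L2FC between replicate numbers had a Pearson r of -0.39 and a Spearman rho of -0.37, given as a description over genes of the same 4 libraries, some of which share a host.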
